A study of Mus musculus with 50 samples.

Results

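The miR-29 family consists of 3 mature microRNAs (miRNAs), miR-29a-3p, miR-29b-3p and miR-29c-3p, selected by name (mmu-miR-29a-3p, mmu-miR-29b-3p and mmu-miR-29c-3p) among 1892 miRNA entries counted in mouse blood serum. They held 14923 of 2678832 counts, or 0.557%. Libraries came from C57BL/6 mice 8 to 12 weeks old, in 5 groups of 5 libraries. As a model of ischemic stroke, MCAO mice had the left middle cerebral artery closed with a filament for 30 min and were bled 150 min after it was withdrawn. MCAO_Sham mice went through that operation without a filament in the artery. As a model of intracerebral hemorrhage, ICH mice had 20 µL of their own blood infused into the striatum. ICH_Sham mice had the needle inserted without any infusion, and Naïve mice were not treated. The labels give one post-operative time, that of MCAO, and do not say that each library is a separate animal, so the spread behind each p-value may be partly technical.

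miRNAs are short RNAs that guide Argonaute proteins to messenger RNAs, mainly by pairing of the seed, bases 2 to 8, with sites in the 3′ untranslated region (UTR), which lowers the output of the messenger. The miR-29 family is known for repressing collagens and other genes of the extracellular matrix, and its level is known to fall in fibrotic tissue. In brain, miR-29 rises as neurons mature and is known to restrain pro-apoptotic BH3-only genes. Serum carries miRNAs in vesicles and protein complexes released by many tissues and blood cells.

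The mature sequences, from RefSeq on build GRCm38.p6, are shown because the members share a seed and differ in few other bases, which bears on how their reads can be told apart. The seed is in capitals.
miR-29a-3p: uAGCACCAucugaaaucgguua
miR-29b-3p: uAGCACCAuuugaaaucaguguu
miR-29c-3p: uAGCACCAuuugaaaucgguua
Among 1679 mature mouse miRNA names in that table, these 3 alone carried the seed AGCACCA. Counted from 1 at the 5′ end, the change from miR-29a-3p to miR-29c-3p was C10U alone, and the changes from miR-29c-3p to miR-29b-3p were G18A, U21G and A22U over the 22 positions both have. miR-29b-3p alone of the 3 ends in AGUGUU, which 2 names in the table share and which is known from human miR-29b as a signal for nuclear import. The sources used here do not give the number of mismatches the alignment allowed or how reads matching several miRNAs were counted. Exchange of reads between miR-29a-3p and miR-29c-3p was not tested.

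The 3 mature miRNAs come from 4 hairpins in 2 pairs. The hairpins are given with the 3p arm in capitals, to show that both miR-29b hairpins hold an identical mature sequence.
Mir29a: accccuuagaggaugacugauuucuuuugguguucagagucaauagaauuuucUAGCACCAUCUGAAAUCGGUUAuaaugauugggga
Mir29b-1: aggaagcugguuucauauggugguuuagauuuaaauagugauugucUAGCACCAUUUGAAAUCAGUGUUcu
Mir29b-2: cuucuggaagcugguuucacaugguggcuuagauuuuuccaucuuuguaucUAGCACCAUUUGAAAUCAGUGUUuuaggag
Mir29c: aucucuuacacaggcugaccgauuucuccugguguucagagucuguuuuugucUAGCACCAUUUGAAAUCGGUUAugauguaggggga
Mir29a (chr6:31062660-31062747, minus strand) and Mir29b-1 (chr6:31063023-31063093, minus strand) lie 275 bases apart, and the 5′ end of Mir29b-1 overlaps the 3′ end of the long non-coding RNA gene Gm27019. Mir29b-2 (chr1:195037040-195037120, plus strand) and Mir29c (chr1:195037547-195037634, plus strand) lie 426 bases apart in an exon of the non-coding transcript A330023F24Rik, on the strand opposite to an exon of Cd46. Counts of miR-29b-3p cannot be divided between Mir29b-1 and Mir29b-2. The 5p arms were nearly absent, with 0 counts of miR-29a-5p over the 25 libraries, 1 of miR-29b-1-5p, 2 of miR-29b-2-5p and 15 of miR-29c-5p. A count of 0 allows up to 3 counts.

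The heptamer TGGTGCT, the reverse complement of the seed, was searched on the transcribed strand in the longest annotated 3′ UTR of each gene (GENCODE annotation, GRCm38). It occurred in 25 of 44 collagen genes (56.8%) and in 2755 of 21020 protein-coding genes (13.1%). Among protein-coding genes with UTRs as long as the middle range of the collagens, the share was 11.2%. One match each is shown for the fibrillar collagens of types I and III, with the heptamer in capitals.
Col1a1: gggtggggtgggaaggaatttcTGGTGCTa
Col3a1: ttccaacttcaaaatgtctcaaTGGTGCTa
The first lies at chr11:94952516-94952545 and the second at chr1:45348960-45348989, both on the plus strand, and Col1a2 had 0 matches. These are sequence matches, and no messenger RNA was measured here.

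Library totals ranged from 38393 to 315646 counts. MCAO libraries had a median of 130309 counts, MCAO_Sham 80821, ICH 118643, ICH_Sham 114128 and Naïve, the shallowest group, 39237. Levels are given as CPM, a count relative to its library total after TMM scaling (trimmed mean of M-values). TMM multiplies each library total by a single factor, taken from a trimmed mean of log ratios. The factor offsets the pull of a few very abundant miRNAs on the values of all others. It leaves differences between individual miRNAs in place. A CPM value is relative to the other miRNAs of its library, and in serum fewer cells that release a miRNA and less of it per cell cannot be told apart. The 3 libraries MCAO II, ICH_Sham I and Naïve II had TMM factors of 0.634, 0.728 and 0.723, below the factors of the others. The summed levels of blood cell, liver, muscle and neuron miRNAs were above 0 in every library. The red cell miRNAs, 5 in number, summed to 16806 to 73591 CPM over the libraries.

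miR-29a-3p made up almost all of the family. It had 14269 counts, 95.6% of the family's, and ranked 46 among 925 miRNAs with a count. miR-29b-3p had 392 counts (2.63% of the family, rank 164) and miR-29c-3p had 262 (1.76%, rank 177). All 3 were detected in all 25 libraries, but the minor members rested on few reads. In a library, miR-29b-3p had 7 to 43 counts in MCAO, 5 to 30 in MCAO_Sham, 12 to 32 in ICH, 6 to 19 in ICH_Sham and 2 to 7 in Naïve. miR-29c-3p had 6 to 32 counts in MCAO, 2 to 30 in MCAO_Sham, 4 to 20 in ICH, 7 to 12 in ICH_Sham and 1 to 6 in Naïve.

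The level of miR-29a-3p varied little within groups. Its standard deviation of log2 CPM within groups was 0.215, the 4th smallest among 199 miRNAs that passed the filter on low counts, whose median was 0.450. Among the 49 of them at least as abundant it was also the 4th smallest. Its spread was still wider than counting alone gives, with a chi-square per degree of freedom of 11.7, where pure counting gives about 1. miR-29b-3p and miR-29c-3p had within-group standard deviations of 0.473 and 0.515, and their chi-square per degree of freedom was 1.53 and 1.38, so most of their spread was of the size that counting gives.

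miR-29a-3p had 6730, 5156, 6682, 7125 and 4922 CPM in MCAO libraries I to V. It had 4846, 5417, 4908, 4783 and 4732 CPM in MCAO_Sham libraries I, II, IV, V and VII. Every MCAO library was above the MCAO_Sham median of 4846 CPM, and 3 of 5 were above the highest MCAO_Sham library. In ICH libraries I to V it had 5207, 7648, 6026, 7567 and 5843 CPM. In ICH_Sham libraries I to V it had 5236, 5251, 4102, 4729 and 4858 CPM. The ICH and ICH_Sham ranges met only at ICH I, as 4 of 5 ICH libraries were above every ICH_Sham library. Naïve libraries I to V had 4817, 5371, 3639, 3965 and 3263 CPM, and 3 of these were lower than any operated library. MCAO averaged 6123 ± 1007 CPM, MCAO_Sham 4937 ± 276, ICH 6458 ± 1093, ICH_Sham 4835 ± 470 and Naïve 4211 ± 866 (SD, n = 5 each). From high to low the order was ICH, MCAO, MCAO_Sham, ICH_Sham, Naïve.

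miR-29b-3p had 227, 215.5, 230, 306 and 89.0 CPM in MCAO libraries I to V. It had 117, 177, 151, 94.9 and 127 CPM in MCAO_Sham libraries I, II, IV, V and VII. MCAO V lay below every MCAO_Sham library, and the other MCAO libraries lay above all of them. In ICH libraries I to V it had 120, 196, 169, 184 and 94.8 CPM. In ICH_Sham libraries I to V it had 128, 117, 49.6, 188 and 70.6 CPM. Naïve libraries I to V had 89.4, 83.1, 103, 92.7 and 45.3 CPM, close together apart from Naïve V. MCAO averaged 213.6 ± 78.2 CPM, MCAO_Sham 133 ± 31.6, ICH 153 ± 43.6, ICH_Sham 111 ± 54.1 and Naïve 82.6 ± 22.0 (SD, n = 5 each). Here MCAO came first, before ICH, MCAO_Sham, ICH_Sham and Naïve.

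miR-29c-3p had 130, 160, 99.7, 149 and 76.3 CPM in MCAO libraries I to V. It had 33.3, 82.4, 151, 38.0 and 84.7 CPM in MCAO_Sham libraries I, II, IV, V and VII, an uneven group in which MCAO_Sham IV reached the upper MCAO values. In ICH libraries I to V it had 40.0, 168, 69.5, 115 and 111 CPM. In ICH_Sham libraries I to V it had 90.4, 91.8, 82.7, 99.1 and 82.3 CPM, which lay inside the ICH range. Naïve libraries I to V had 51.1, 99.8, 51.3, 46.4 and 22.7 CPM, with Naïve II high. MCAO averaged 123 ± 34.7 CPM, MCAO_Sham 77.9 ± 47.5, ICH 100.7 ± 48.8, ICH_Sham 89.3 ± 7.01 and Naïve 54.2 ± 28.1 (SD, n = 5 each), an order of MCAO, ICH, ICH_Sham, MCAO_Sham and Naïve. For each of the 3 miRNAs, the ranges of neighbouring groups in these orders overlapped.

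**Figure D1:**
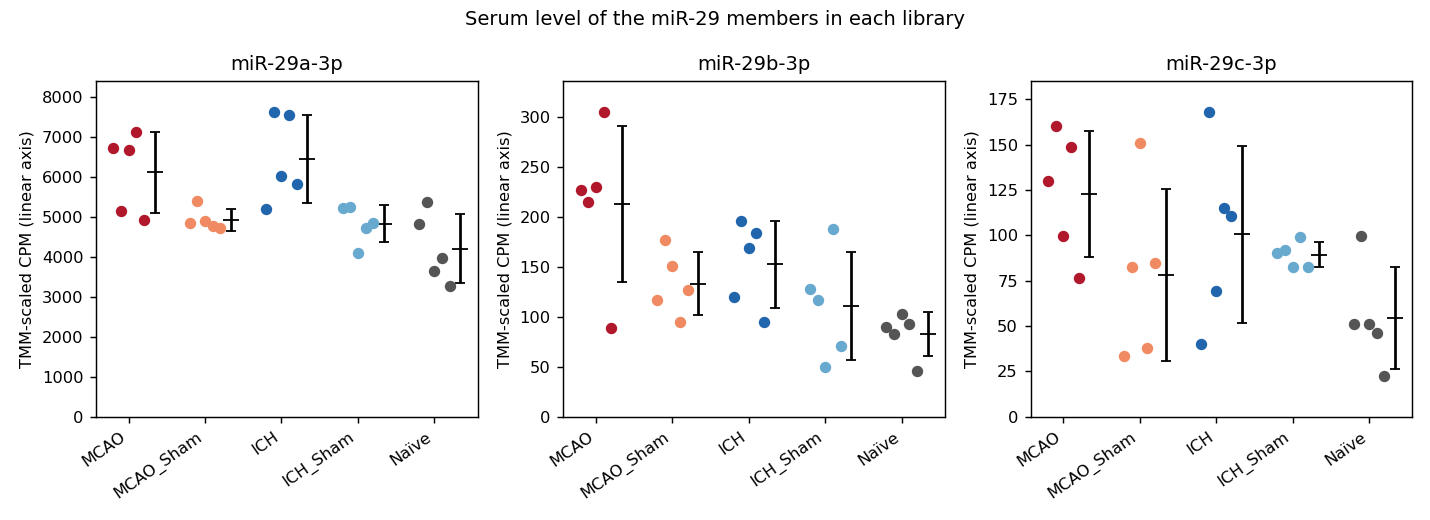
Level of miR-29a-3p, miR-29b-3p and miR-29c-3p (TMM-scaled CPM, linear axes from 0) in each of 25 serum libraries, by group in the order MCAO, MCAO_Sham, ICH, ICH_Sham and Naïve; bars give mean ± SD, n = 5. The Naïve mean is the lowest in each panel (4211, 82.6 and 54.2 CPM), and miR-29a-3p in MCAO_Sham spans only 4732 to 5417 CPM.

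The comparison of ischemia with its sham operation asked whether closing the artery altered circulating miRNAs beyond surgery. All 3 members had positive log2 fold changes in MCAO against MCAO_Sham, and 0 of 3 passed the test, against a background of 7.54% of the 199 miRNAs tested. A miRNA passed where edgeR's quasi-likelihood test gave a Benjamini-Hochberg adjusted p under 0.05. The log2 fold change of miR-29b-3p was 0.66 (SE 0.31, 95% interval 0.030 to 1.29, adjusted p = 0.127 by edgeR's quasi-likelihood test). That of miR-29c-3p was 0.49 (SE 0.35, interval -0.22 to 1.21, adjusted p = 0.293 by the same test). That of miR-29a-3p was 0.31 (SE 0.17, interval -0.040 to 0.66, adjusted p = 0.186). miR-29b-3p was the one member whose unadjusted p was below 0.05 (p = 0.0407 in edgeR's fit). With DESeq2 and with limma voom, 0 members passed after adjustment. Without MCAO V, the library with the lowest miR-29b-3p level of its group, miR-29b-3p passed at 0.82 (adjusted p = 0.0409 by edgeR), and without MCAO_Sham IV miR-29c-3p was at 0.96 (adjusted p = 0.0702). The background rested on single libraries too: of the 199 miRNAs 15 passed, but, with the filter applied anew each time, 2 without MCAO II, 55 without MCAO V, 24 without MCAO_Sham II and 34 without MCAO_Sham IV.

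Index tags were divided here by number into a lower and a higher range, which split both the MCAO and the MCAO_Sham libraries. The labels do not mark this division. ICH_Sham V has the last tag of the lower range and MCAO I the first of the higher, with no gap between their numbers. Whether the ranges were separate batches is not stated. Within the low range, MCAO minus MCAO_Sham was 0.38 for miR-29a-3p, 0.76 for miR-29b-3p and 0.20 for miR-29c-3p in mean log2 CPM (3 MCAO and 2 MCAO_Sham libraries). Within the high range it was 0.20, 0.17 and 0.82 for the same members (2 MCAO and 3 MCAO_Sham libraries). The sign held in both ranges for each member and the size did not.

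In the comparison of hemorrhage with its sham operation, all 3 members again had positive log2 fold changes and none passed. For miR-29a-3p, higher in 4 of 5 ICH libraries than in any ICH_Sham library, the log2 fold change in ICH against ICH_Sham was 0.42 (SE 0.17, interval 0.068 to 0.77, adjusted p = 0.462 by edgeR's quasi-likelihood test), and its unadjusted p ranked 7 among 199. miR-29b-3p was at 0.46 (SE 0.32, interval -0.19 to 1.11, adjusted p = 0.594 by edgeR), at 0.25 without ICH_Sham III and at 0.72 without ICH_Sham IV. miR-29c-3p was at 0.19 (SE 0.35, interval -0.53 to 0.91, adjusted p = 0.814 by edgeR), and at -0.062 without ICH II. None of the 3 passed, and neither did any of the 199 miRNAs (background 0%): by edgeR 20 had an unadjusted p below 0.05, and 0 passed with DESeq2 or with limma voom, while 1 passed in edgeR's test without ICH IV. All ICH and ICH_Sham libraries had index tags of the low range.

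The MCAO effect over its sham did not differ detectably from the ICH effect over its sham for any member. The difference of the log2 fold changes, MCAO minus ICH, was -0.11 for miR-29a-3p (interval -0.60 to 0.39), 0.20 for miR-29b-3p (interval -0.72 to 1.11) and 0.30 for miR-29c-3p (interval -0.72 to 1.32). The edgeR adjusted p-values of these differences were 0.852, 0.852 and 0.780, with 1.01% of all miRNAs passing (2 miRNAs, but 7 without MCAO V and 0 without ICH_Sham III). Of the members, 0 had an unadjusted p below 0.05, and 0 passed with DESeq2 or with limma voom. The sign for miR-29b-3p turned to -0.065 with libraries scaled by their totals alone and to -0.055 without ICH_Sham IV. Set directly against ICH, MCAO had log2 fold changes of -0.077 for miR-29a-3p, 0.50 for miR-29b-3p and 0.30 for miR-29c-3p. None of these passed in edgeR's test (adjusted p = 0.826, 0.283 and 0.627), where 14.6% of all miRNAs did (29 miRNAs, but 17 without MCAO II), and of the members 0 had an unadjusted p below 0.05 and 0 passed with DESeq2 or limma voom.

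Against untreated mice, all 3 members were higher in MCAO and all 3 passed, where 17.6% of the 199 miRNAs passed in the higher direction and 30.7% in either. miR-29b-3p and miR-29c-3p exceeded the cutoff of the filter on low counts in 0 Naïve libraries. Their calls are therefore not independent of the filter, and the count of 3 is not separate support. The log2 fold change was 1.38 for miR-29b-3p (SE 0.37, interval 0.63 to 2.13, adjusted p = 0.00842 by edgeR's quasi-likelihood test). It was 1.15 for miR-29c-3p (SE 0.43, interval 0.27 to 2.02, adjusted p = 0.0425 by edgeR) and 0.54 for miR-29a-3p (SE 0.17, interval 0.18 to 0.89, adjusted p = 0.0254 by edgeR). Every MCAO library was above the Naïve median for miR-29a-3p and miR-29c-3p, and 4 of 5 were for miR-29b-3p, MCAO V being the exception. The ranges overlapped for each member. Across all 199 miRNAs the median log2 fold change was 0.020, and the 61 that passed became 25 without MCAO II and 36 without MCAO III.

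The calls in MCAO against Naïve differed in how far they held. miR-29b-3p kept its call without any 1 library (adjusted p 0.00154 to 0.0291 by edgeR). Like miR-29c-3p, it had passed the filter on low counts through operated libraries only. The call of miR-29a-3p ended without any 1 of MCAO I, III or IV or Naïve III, IV or V (adjusted p 0.0637 to 0.0724). The call of miR-29c-3p ended without any 1 of MCAO I, II, III or IV or Naïve I, III, IV or V (adjusted p 0.0563 to 0.121). Both also ended with the tag range as a block in the fit (adjusted p = 0.0626 for miR-29a-3p and 0.117 for miR-29c-3p by edgeR). Of the Naïve libraries, Naïve I alone has a low index tag. Within the low range the MCAO minus Naïve difference in mean log2 CPM was 0.38 for miR-29a-3p, 1.30 for miR-29b-3p and 1.12 for miR-29c-3p (3 MCAO libraries and 1 Naïve library). Within the high range it was 0.53, 0.74 and 0.78 for these members (2 MCAO and 4 Naïve libraries).

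miR-29a-3p also rose in ICH against Naïve, with a log2 fold change of 0.61 (SE 0.17, interval 0.26 to 0.97, adjusted p = 0.0164 by edgeR's quasi-likelihood test). It was the one member of 3 to pass, where 8.54% of all miRNAs passed in the higher direction. The call ended without ICH II (adjusted p = 0.0501 by edgeR) or without ICH IV (adjusted p = 0.0540), and with the tag range as a block (adjusted p = 0.0815). Of all miRNAs 29 passed, but 19 without ICH II, 15 without ICH IV, 19 without Naïve IV and 17 without Naïve V. miR-29b-3p was at 0.88 (SE 0.38, adjusted p = 0.114 by edgeR) and miR-29c-3p at 0.85 (SE 0.44, adjusted p = 0.205 by edgeR). In the low tag range, where Naïve has 1 library, ICH minus Naïve was 0.40 for miR-29a-3p, 0.62 for miR-29b-3p and 0.66 for miR-29c-3p in mean log2 CPM.

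The sham operations gave smaller log2 fold changes over Naïve than the stroke models did, and none passed in edgeR's test. In MCAO_Sham the log2 fold changes were 0.23 for miR-29a-3p, 0.72 for miR-29b-3p and 0.66 for miR-29c-3p (adjusted p = 0.537, 0.510 and 0.537 by edgeR), with 0.503% of all miRNAs passing (1 miRNA, and 0 to 2 without 1 library). The value of miR-29c-3p was 0.16 without MCAO_Sham IV, and its difference in mean log2 CPM was 0.92 within the low tag range and -0.041 within the high one. For miR-29a-3p these within-range differences were 0.00045 and 0.33, and for miR-29b-3p 0.54 and 0.57 (2 MCAO_Sham libraries and 1 Naïve library in the low range, 3 and 4 in the high one). In ICH_Sham the log2 fold changes over Naïve were 0.20, 0.41 and 0.66 for the same members (adjusted p = 0.576, 0.609 and 0.482 by edgeR), with 6.53% passing, and miR-29b-3p was at 0.17 without ICH_Sham IV. In the low tag range, ICH_Sham minus Naïve was -0.00043, 0.15 and 0.62 in mean log2 CPM for the same members, with 1 Naïve library. No member had an unadjusted p below 0.05 in either sham comparison, and 0 members passed with DESeq2, which gave miR-29c-3p no adjusted p in ICH_Sham, or with limma voom. The mean of the 4 operated groups over Naïve was 0.39 for miR-29a-3p, 0.85 for miR-29b-3p and 0.83 for miR-29c-3p (adjusted p = 0.0658, 0.0826 and 0.146 by edgeR), with 8.54% passing. These were 17 miRNAs, but 34 without MCAO V, 36 without Naïve II, 10 without Naïve IV and 7 without Naïve V. All comparisons with Naïve share the same 5 Naïve libraries, so their common sign is not separate evidence.

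Both minor members passed the filter on low counts through operated libraries only. The filter asks for 108.6 CPM computed on unscaled library totals, before TMM, in at least 5 libraries. miR-29b-3p exceeded it in 13 libraries and miR-29c-3p in 7, and in 0 Naïve libraries, so a difference of these members from Naïve is not independent of the filter. miR-29a-3p exceeded it in all 25. Summed over the group, miR-29b-3p had 145 counts in MCAO and 22 in Naïve, and miR-29c-3p had 85 in MCAO and 15 in Naïve.

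**Figure D2:**
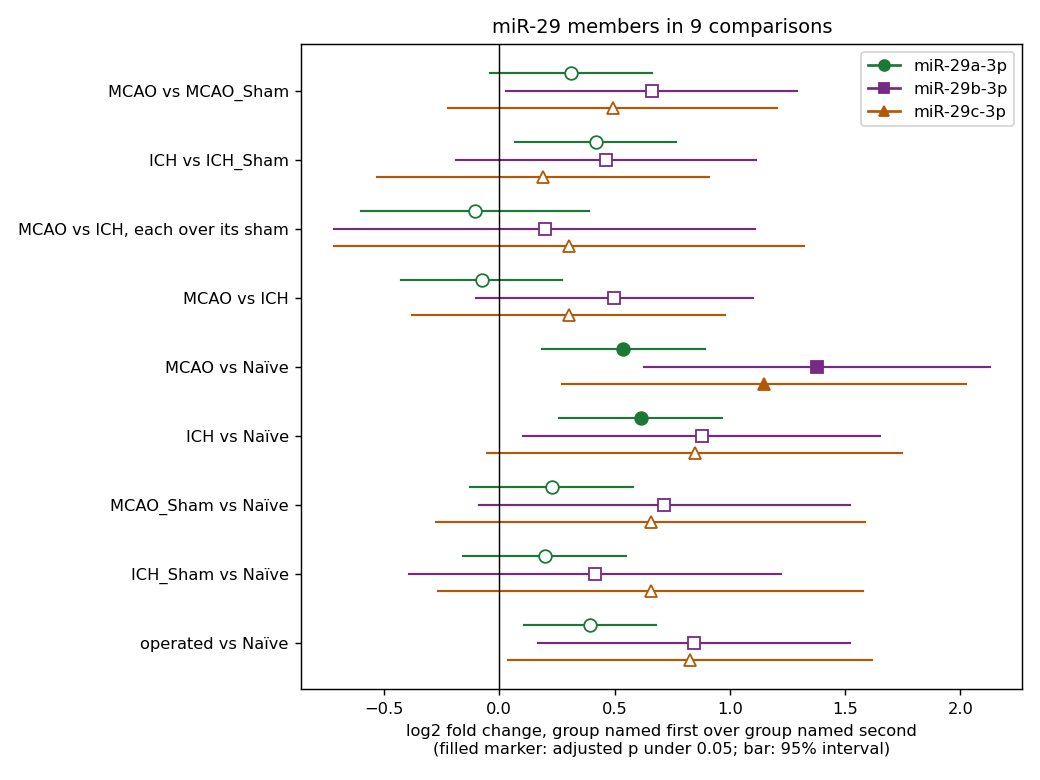
Log2 fold change of each member (group named first over group named second) in 9 comparisons with 95% intervals; filled markers have an adjusted p under 0.05 in edgeR's quasi-likelihood test. Filled are all 3 members in MCAO against Naïve (0.54, 1.38 and 1.15) and miR-29a-3p in ICH against Naïve (0.61).

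**Figure D3:**
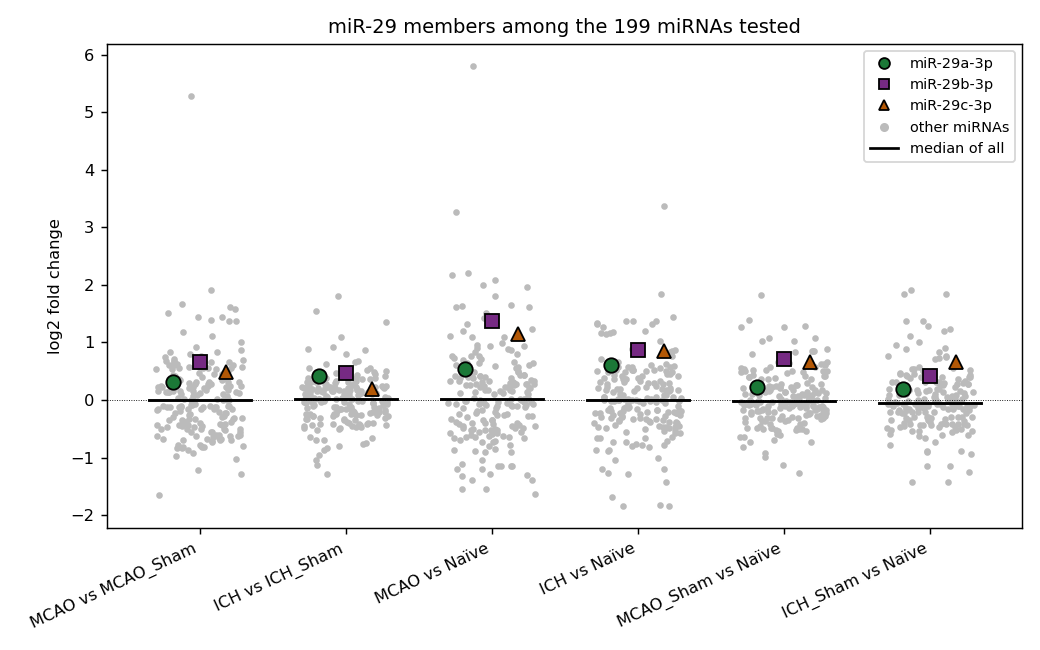
Log2 fold changes of the 3 members (coloured) among all 199 miRNAs tested (grey, with their median as a line) in 6 comparisons. The members lie above the median of all miRNAs in each of them, and other miRNAs lie as far from it in each.

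Summed levels of lymphocyte and red cell miRNAs were lower in MCAO, in ICH and in ICH_Sham than in Naïve. The 3 lymphocyte miRNAs summed to 2793 to 6360 CPM in MCAO and 2839 to 5377 in ICH, against 7798 to 18719 in Naïve. The 5 red cell miRNAs summed to 18342 to 31976 CPM in MCAO and 16806 to 26464 in ICH, against 39371 to 73591 in Naïve, where miR-144-5p was at 0. In ICH_Sham the sums were 4758 to 6670 CPM for lymphocytes and 21976 to 38312 for red cells, also below the Naïve ranges. In MCAO_Sham they were 4280 to 9495 and 24531 to 64484 CPM, which overlapped Naïve. In edgeR's test, 1 of 2 lymphocyte miRNAs that passed the filter (miR-150-5p), 1 of 3 of red cells (miR-486-5p) and 1 of 3 of platelets and myeloid cells (miR-191-5p) fell in MCAO and in ICH against Naïve. The log2 fold changes were -1.63 in MCAO and -1.84 in ICH for miR-150-5p, -1.31 and -1.42 for miR-486-5p, and -0.62 and -0.81 for miR-191-5p. Over all miRNAs, 13.1% fell in MCAO and 6.03% in ICH. Some of these falls were also seen after the sham operations. miR-150-5p fell against Naïve in MCAO_Sham (-1.13) and in ICH_Sham (-1.15), and miR-486-5p in ICH_Sham alone (-0.89). miR-191-5p passed in neither sham group. Of all 199 miRNAs, 1 fell in MCAO_Sham and 6 in ICH_Sham. Others on these lists did not pass, such as the red cell miR-451a, with a log2 fold change of 0.11 in MCAO against Naïve, and the myeloid miR-223-3p, with 0.28. In MCAO and in ICH against Naïve, 1 of 3 muscle and 2 of 3 neuron miRNAs rose, beside the 17.6% and 8.54% of all miRNAs given above. The muscle miRNA, miR-1a-3p, rose in ICH_Sham against Naïve as well (1.37), where 7 of all 199 rose. It did not pass in MCAO_Sham, and 0 neuron miRNAs passed in either sham group. The 4 neuron miRNAs summed to 11885 to 16882 CPM in MCAO and 11683 to 14473 in ICH, against 7699 to 16861 in Naïve, where miR-124-3p was at 0. The part of these changes in the miR-29 differences was not tested. With every library thinned once at random to the lowest library total, miR-29a-3p lost its call in MCAO against Naïve (0.46, adjusted p = 0.108 by edgeR). It kept its call in ICH against Naïve (0.70, adjusted p = 0.0148 by edgeR). Thinning also removed counts and so power: of 160 miRNAs then tested, 25 passed in MCAO against Naïve, where 61 of 199 had passed. The part of depth in these differences was not tested.

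The proportions of the members to each other showed no difference between groups that passed. The ratio of miR-29a-3p to miR-29c-3p within a library, with 0.5 added to each count, had a median of 55.6 over all libraries and ran from 31.7 to 117. On the log2 scale it averaged 5.62 ± 0.40 in MCAO and 6.11 ± 0.39 in Naïve (SD, n = 5 each), a difference of -0.49 (exact two-sided permutation test, p = 0.0873, adjusted p = 0.349 over 12 tests). The log2 ratio of miR-29b-3p to miR-29a-3p averaged -4.90 ± 0.47 in MCAO and -5.52 ± 0.39 in Naïve (SD, n = 5 each), a difference of 0.63 (exact two-sided permutation test, p = 0.0556, adjusted p = 0.333). The smallest p that the splits of 5 against 5 libraries allow is 0.00794. Over all 12 tests, 6 group pairs for each ratio, adjusted p-values ran from 0.333 to 1.

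**Figure D4:**
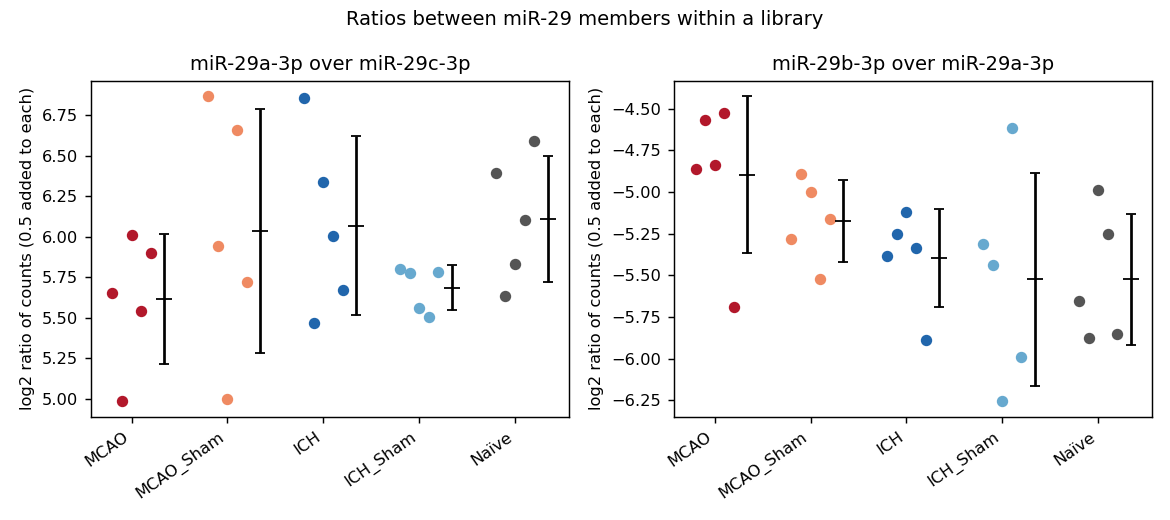
Log2 ratios of counts within a library (0.5 added to each count) of miR-29a-3p over miR-29c-3p and of miR-29b-3p over miR-29a-3p, by group; bars give mean ± SD, n = 5. The groups overlap in both panels, and 1 step on the axis is a doubling of the ratio.

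Within groups, libraries high in one member tended to be high in the others. After group means were subtracted, log2 CPM of miR-29a-3p and miR-29b-3p correlated over 25 libraries with r = 0.61 and rho = 0.56 (permutation within groups, adjusted p = 0.00360 and 0.0168 over 3 relations), and r was 0.62 without Naïve II and Naïve V. For miR-29a-3p and miR-29c-3p, r was 0.57 and rho 0.51 (permutation, adjusted p = 0.00398 and 0.0205), and r was 0.44 without Naïve II and Naïve V. For miR-29b-3p and miR-29c-3p, r was 0.50 and rho 0.50 (permutation, adjusted p = 0.00398 and 0.0205), and r was 0.49 without MCAO V and ICH_Sham III. The values of a library share its total and its scaling factor.

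By the same measure, the 5 miRNAs most like each member among 196 others were listed as a description. For miR-29a-3p they were miR-27a-3p (r = 0.81), miR-22-3p (0.75), miR-24-3p (0.69), miR-24-2-5p (0.69) and miR-300-3p (0.64). For miR-29b-3p they were miR-20a-5p (0.68), miR-218-5p (0.64), miR-1843b-5p (0.59), miR-27a-3p (0.58) and miR-27b-3p (0.51). For miR-29c-3p they were miR-140-5p (0.82), miR-16-5p (0.65), miR-20a-5p (0.61), let-7d-5p (0.60) and miR-455-5p (0.60). Each of the 5 named for miR-29a-3p and for miR-29c-3p had a higher r than that member had with either relative. For miR-29b-3p, miR-20a-5p and miR-218-5p exceeded its r of 0.61 with miR-29a-3p. Correlation of this size was thus not particular to the family. miR-27a-3p was the one name shared by miR-29a-3p and miR-29b-3p, and miR-20a-5p the one shared by miR-29b-3p and miR-29c-3p. miR-29a-3p and miR-29c-3p, whose sequences differ by 1 base, shared 0 names.

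**Figure D5:**
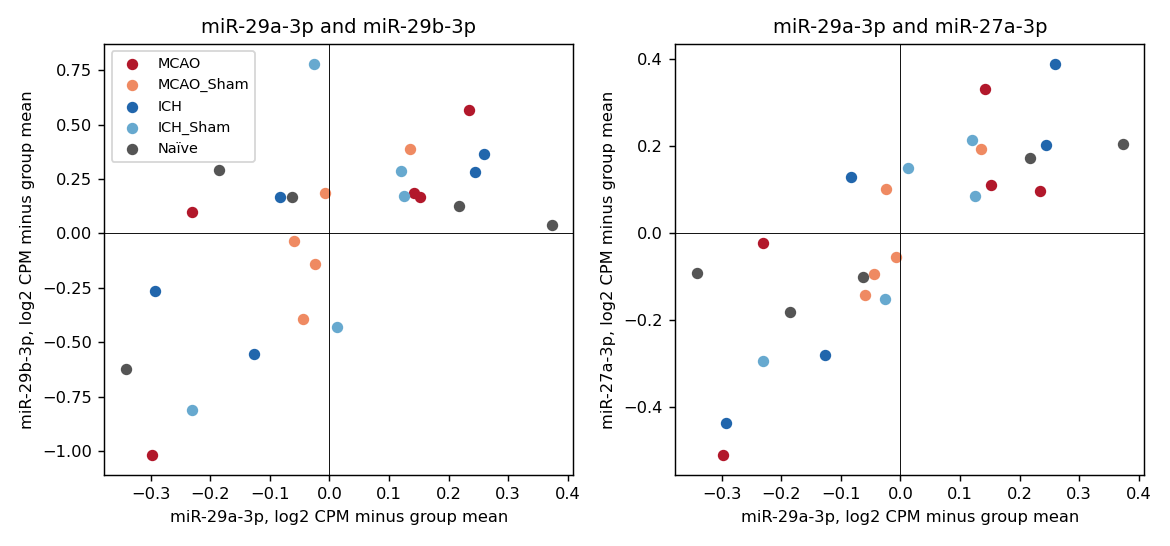
Log2 CPM minus the group mean in 25 libraries, for miR-29a-3p (horizontal axes) against miR-29b-3p (left) and against miR-27a-3p (right), coloured by group. The points rise together in both panels (r = 0.61 and 0.81).

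Other miRNAs linked to fibrosis and transforming growth factor beta signalling were read beside the family from a list of 20, of which 18 passed the filter. In MCAO against MCAO_Sham, 11 of all 199 miRNAs rose and 4 fell in edgeR's test (7.54% in either direction), a share that moved with single libraries as given above. Of the 18 on the list, 3 rose and 0 fell. They were miR-200a-3p (log2 fold change 1.50, SE 0.34, adjusted p = 0.00985 by edgeR) and miR-200b-3p (1.37, SE 0.35, adjusted p = 0.0137 by edgeR), known for repressing the Zeb factors of epithelial-mesenchymal transition, and miR-30a-5p (0.80, SE 0.22, adjusted p = 0.0187 by edgeR). The median log2 fold change of the 18 was 0.14 in that comparison, against 0.0045 over all miRNAs and 0.49 for the 3 miR-29 members. In ICH against ICH_Sham 0 of 18 passed, and the median was 0.12. Against Naïve, 4 rose and 1 fell in MCAO (30.7% of all miRNAs passed), 2 rose and 1 fell in ICH (14.6%), 0 passed in MCAO_Sham (0.503%) and 1 rose in ICH_Sham (6.53%). These shares of the list against Naïve were near those of all miRNAs.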

How the data were processed

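The authors deposited raw counts per mature miRNA in 1 table of 1892 entries in 50 columns (25 libraries in 2 runs each). Per the submitters' processing notes the tool was Bowtie 0.12.9; the sources used here do not give the build, annotation release or trimming. Per the labels' protocols, small RNA libraries were made from a fixed volume of serum RNA. Counts of runs with the same index tag were summed, as they differed by no more than counting gives (chi-square over degrees of freedom 0.792 to 1.27, and 11.2 or more between libraries of 1 group). The labels name no molecular identifiers. The 95% intervals of the log2 fold changes come from edgeR's quasi-likelihood fit, so they cover the spread between libraries as well as counting error.

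edgeR 4.0.16 (R 4.3.3) kept 199 miRNAs by filterByExpr with a minimum count of 10. TMM scaling and 1 robust quasi-likelihood fit over 25 libraries gave 9 comparisons, with Benjamini-Hochberg adjustment over the 199 and a threshold of 0.05. The standard error is the log2 fold change divided by the square root of F. Log2 CPM used a prior count of 2. Ratios were compared by exact permutation. DESeq2 1.42.0, limma 3.58.1 (voom), other scalings, filters and blocks were alternatives. miRNAs were named by rule: the 3 members, the 5 most alike to each, and fibrosis list members passing against a sham. Members and lists were chosen with earlier results of these data known.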

Additional observations from a re-analysis of the deposited data

Results flagged for a closer look

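The CPM of miR-29a-3p in MCAO_Sham was uneven at its upper end. MCAO_Sham II had 5417 CPM, and its gap to the next library was 0.742 of the range of the 5 libraries, over Dixon's critical value of 0.71 for 5. The remaining 4 libraries lay between 4732 and 4908 CPM, so the gap stands out in a narrow group. Of 25 groups of values examined this was the one above the critical value, and chance gives about 1 in 20.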

How the results depend on the processing

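Of 631 recomputed log2 fold changes, 590 kept sign and side of the threshold, 29 lost a call, 9 gained one and 3 changed sign. miR-29b-3p in MCAO against Naïve kept its call under the 9 of 13 alternatives that tested it (1.22 to 1.51, adjusted p 0.00353 to 0.0400 by edgeR, DESeq2 or limma). miR-29a-3p in MCAO against Naïve lost its call with library totals alone (0.49), no count filter (0.66), the index tag range as a block (0.50), libraries thinned to one depth (0.46) and only the compared groups in the fit (0.52), with adjusted p up to 0.114. miR-29c-3p in that comparison lost its call with library totals alone (1.06), DESeq2 (1.13), no count filter (1.29), the tag block (0.93) and without the 3 libraries of low TMM factor (1.38), chosen after seeing the data. miR-29a-3p in ICH against Naïve lost its call with no count filter (0.75), the tag block (0.55) and only the compared groups (0.55). miR-29a-3p in all operated groups against Naïve gained a call with DESeq2 (0.37), run 2 alone (0.44) and without the low-factor libraries (0.52). The difference between the 2 stroke effects for miR-29b-3p became -0.065 with library totals alone.

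Without 1 library, log2 fold changes for MCAO against MCAO_Sham were 0.53 to 0.82 (miR-29b-3p) and 0.36 to 0.96 (miR-29c-3p). For ICH against ICH_Sham they were -0.062 to 0.35 (miR-29c-3p), and for the difference of the 2 effects -0.055 to 0.41 (miR-29b-3p). For MCAO against Naïve they were 0.44 to 0.65 (miR-29a-3p) and 0.98 to 1.52 (miR-29c-3p), and for ICH against Naïve 0.55 to 0.72 (miR-29a-3p). For operated against Naïve they were 0.34 to 0.49 (miR-29a-3p) and 0.73 to 0.92 (miR-29b-3p). The cause was not tested.

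Of 168 recomputed ratio differences, 21 changed sign. With a pseudocount of 1, miR-29a-3p over miR-29c-3p became 0.12 in ICH and 0.019 in MCAO_Sham against Naïve, and miR-29b-3p over miR-29a-3p -0.085 in ICH_Sham against Naïve. With run 1 alone the last became -0.53. With run 2 alone, miR-29a-3p over miR-29c-3p became 0.059 in MCAO against MCAO_Sham and 0.18 in ICH against Naïve, and miR-29b-3p over miR-29a-3p -0.24 in ICH against ICH_Sham. Without 1 library, miR-29a-3p over miR-29c-3p ran from -0.24 to 0.11 in ICH and from -0.28 to 0.19 in MCAO_Sham against Naïve, and miR-29b-3p over miR-29a-3p from -0.23 to 0.18 in ICH_Sham against Naïve and from -0.056 to 0.35 in ICH against ICH_Sham.

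Deviations of same-numbered libraries of 2 groups had a median correlation of 0.028 (range -0.35 to 0.54 over 46 pairs), which cannot exclude pairing. With the replicate block, miR-29b-3p in MCAO against Naïve was at 1.35 (adjusted p = 0.00353 by edgeR), and no member's call changed. Operated against Naïve then had 26 passing, against 17. Counts in MCAO against MCAO_Sham (15) were 5 with library totals alone, 42 with DESeq2, 29 with limma voom or without miR-148a-3p and miR-122-5p, 25 with no count filter, 9 thinned, and 2 with only the compared groups or without the low-factor libraries. In MCAO against Naïve, 61 became 27, 40, 27, 25, 21 and 32 with library totals, run 1, the tag block, thinning, only the compared groups and without the low-factor libraries. In ICH against Naïve, 29 became 16 thinned. In ICH_Sham against Naïve, 13 became 6 with the tag block and 7 thinned. In MCAO against ICH, 29 became 16 thinned, 14 with only those groups and 18 without the low-factor libraries. In operated against Naïve, 17 became 36 with DESeq2, 9 with the tag block, 11 thinned and 27 without the low-factor libraries. Library totals alone moved the median of all miRNAs to -0.20 in MCAO against MCAO_Sham and to -0.22 in the difference of the 2 effects. The filter removed miR-29b-3p and miR-29c-3p from single runs and thinned counts, as depth limits both (1 to 7 counts in each Naïve library).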
